A study of Mus musculus with 4 samples.

Results

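The basal cells with low contractile expression were 3641 of the 36884 cell barcodes of a droplet-based single-cell RNA-seq series of the adult mouse mammary gland (9.87%). They were chosen from measured values. Each barcode received 3 panel scores, namely basal, luminal progenitor and hormone-sensing luminal, each the mean of the z-scores of 8 genes on the log2(1 + counts per 10000 UMIs) scale. A barcode was called basal when its basal score was above 0.3 and at least 0.5 above both other scores, and non-cycling when it held fewer than 4 unique molecular identifiers (UMIs) of Mki67, Top2a, Birc5, Ube2c and Cdk1 together. In each library the non-cycling basal barcodes were ordered by the summed counts per 10000 UMIs (CP10k) of Acta2, Tagln, Cnn1, Myl9, Actg2 and Tpm2. The lowest of 3 equal groups is described here and called the low cells, and the other groups are called the middle and the high cells.

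The series holds 4 libraries of cells sorted by flow cytometry from mammary glands of C57BL/B6 mice. They are a Zeb1 MSKO library at 8 weeks, a Zeb1 MSKO library at 9 weeks, a control library at 8 weeks and a control library at 9 weeks. The labels do not expand MSKO, name the driver of the deletion, give the alleles of the control animals, state the sort gate or say how many animals made a library. P-values between genotypes or ages therefore measure only the spread between these libraries, and with 1 library per genotype at each age the age cannot be told apart from the preparation. Where values of a genotype are given in pairs, the 8-week library precedes the 9-week library unless ages are compared.

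Basal, or myoepithelial, cells form the outer layer of the mammary ducts and alveoli, rest on the basement membrane and express the keratins Krt5, Krt14 and Krt17. Most carry a smooth muscle apparatus of actin, myosin and their regulators, which contracts in response to oxytocin and ejects milk. The same layer also holds cells with progenitor activity in transplantation, and the smooth muscle genes are controlled in many tissues by serum response factor (SRF) and its myocardin-family partners, which act through the CArG box. ZEB1 is a zinc-finger repressor best known for silencing epithelial junction genes in epithelial-mesenchymal transition.

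The low cells numbered 1560 and 797 in the Zeb1 MSKO libraries and 585 and 699 in the control libraries. They made up 16.1% and 8.15% of the barcodes of the Zeb1 MSKO libraries and 5.98% and 9.16% of those of the control libraries. Library totals ranged from 80853204 to 122122443 UMIs over 7627 to 9790 barcodes, and the median depth per barcode was lowest in the Zeb1 MSKO library at 8 weeks (6376 UMIs, against 9403 to 10529.5 in the others). The summed counts of the low cells came to 8961560 and 6413601 UMIs in Zeb1 MSKO and 4192712 and 5703777 UMIs in control. Zeb1 itself had 12 and 1 UMIs in the low cells of the Zeb1 MSKO libraries and 4 and 2 UMIs in those of the control libraries, too few to check the labels. Over all barcodes it had 6.89 and 0.704 CPM in Zeb1 MSKO and 3.84 and 0.501 CPM in control, so it was not lower in Zeb1 MSKO at either age. The labels name neither the deleted part nor the cells that lose it, and a 3′ tag outside that part would not show the deletion. Its paralogue Zeb2 had 24 and 5 UMIs in Zeb1 MSKO and 8 and 1 UMIs in control. Among the sequences of the cell barcodes, 682 occurred in more than 1 library, 11 of them among the low cells. A nearest-neighbour caller marked 3.95% and 6.88% of the Zeb1 MSKO barcodes and 4.78% and 4.68% of the control barcodes as doublets, and 97 low cells, 71 middle cells and 15 high cells were among them.

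The contractile level had no gap at the boundary. The highest contractile level among the low cells was 62.7 and 157.6 CP10k in Zeb1 MSKO and 118.4 and 148.5 CP10k in control. The lowest level among the middle cells was 62.8 and 157.7 CP10k in Zeb1 MSKO and 118.5 and 148.6 CP10k in control. Within 10% of the boundary lay 547 low cells and 555 other cells. The boundary was set by rank in each library, so close values there say little about the shape of the distribution. Whether the low cells hold a separate type was not tested. Their basal score reached down to 0.300163, beside 0.299969 in the highest barcode left outside, and 255 of them scored under 0.4. The smallest lead of their basal score over the other scores was 0.500402, beside 0.499844 in the nearest barcode outside. The limit of cycling UMIs was reached by 10 low cells with 3 such UMIs, and 11 basal barcodes with 4 were left out.

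The low cells kept contractile transcripts. Their median contractile level was 38.1 and 112 CP10k in Zeb1 MSKO and 77.3 and 104 CP10k in control. The high cells had 176 and 345 CP10k in Zeb1 MSKO and 288 and 311 CP10k in control. Barcodes called luminal progenitor or hormone-sensing by the mirrored rule had medians between 0 and 2.06 CP10k in the 4 libraries. The basal score includes Acta2, Cnn1 and Myh11 and was used to choose all these barcodes. The gap between low cells and luminal barcodes therefore follows in part from the rule. Acta2, the smooth muscle actin, had no UMI in 58 low cells, 49 of them in the Zeb1 MSKO library at 8 weeks. That library stood apart: its boundary of 62.7 CP10k lay below the median of the low cells of each other library.

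**Figure D1:**
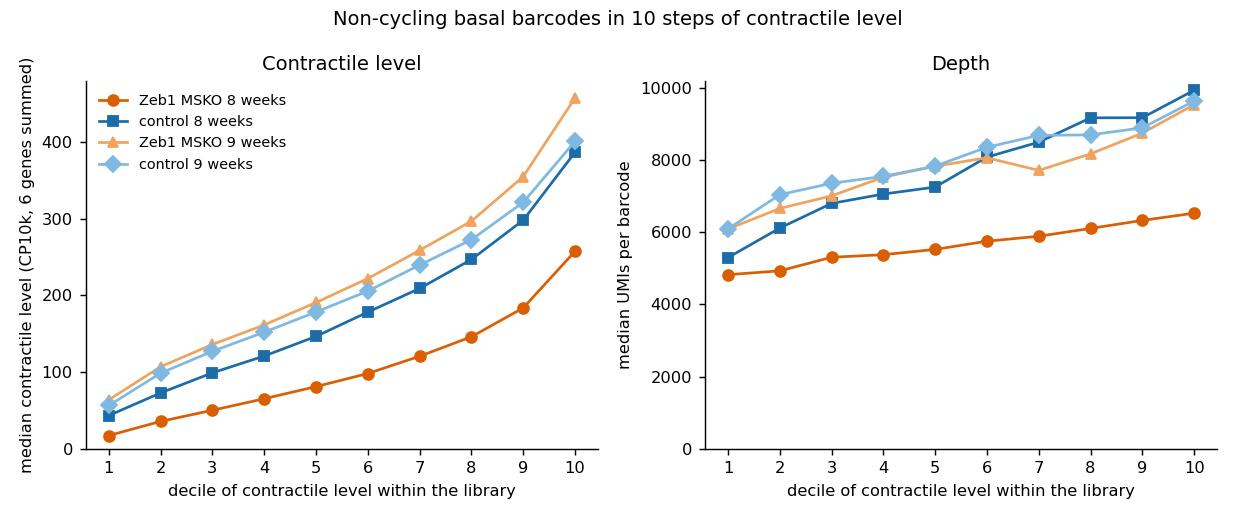
Median summed level of the 6 contractile genes (left, CP10k) and median UMIs per barcode (right) in 10 equal steps of contractile level, numbered from the lowest, for the non-cycling basal barcodes of each library, 1 line per library. The contractile level climbs because the steps are ordered by it, and depth climbs with it in most steps. The Zeb1 MSKO library at 8 weeks lies below the other 3 on both axes.

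Depth moved with the contractile level. The low cells had a median of 4986 and 6665 UMIs in Zeb1 MSKO and 6151 and 6783 UMIs in control, against 6279.5 and 8731 UMIs in the high cells of Zeb1 MSKO and 9325 and 9022 UMIs in those of control. Median genes per barcode were 1749.5 to 2106 in the low cells and 2050.5 to 2568 in the high cells. The median mitochondrial share was slightly higher in the low cells of every library (2.90% to 3.31%, against 2.68% to 3.11% in the high cells), and so was the ribosomal protein share (26.7% to 32.4%, against 26.3% to 29.4%). The differences below were therefore computed again with equal numbers of low and high cells per step of 1000 UMIs, and again with the cells ordered on a random part of their UMIs and the levels read from the rest. Of the low cells, 92.7% were also low when ordered on that part alone, which is contained in the UMIs that chose them.

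Because the groups were cut from the contractile level of the same cells, every difference between low and high cells that follows is a description with no test. Levels are in CPM, the UMIs of a gene scaled to the summed UMIs of its group, and differences are log2 ratios with 2 prior counts, given as the mean ± SD over 4 libraries. Counts come from 3′ ends and are compared within a gene only.

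The 4 marker genes behaved differently. Krt14, a keratin of the basal layer (mm10, chr11:100203162-100207548, minus strand), stood at 4464 and 2857 CPM in the low cells of Zeb1 MSKO and 4020 and 4257 CPM in those of control, against 4357 and 3517 CPM (Zeb1 MSKO) and 3773 and 4669 CPM (control) in the high cells. The log2 ratio was -0.08 ± 0.18, a difference smaller than the spread between libraries. Krt17, a keratin of basal and stressed epithelium (chr11:100256217-100261029, minus strand), was at 3296 and 2002 CPM in the low cells of Zeb1 MSKO and 2477 and 3196 CPM in those of control, against 3716 and 4030 CPM (Zeb1 MSKO) and 3784 and 4825 CPM (control) in the high cells (-0.60 ± 0.34). It was lower in the low cells of every library. Slpi, a secreted inhibitor of neutrophil serine proteases (chr2:164354070-164389095, minus strand), reached 6414 and 3553 CPM in the low cells of Zeb1 MSKO and 4212 and 5410 CPM in those of control, against 2316 and 2007 CPM (Zeb1 MSKO) and 1776 and 2424 CPM (control) in the high cells (1.17 ± 0.27). The lowest value among the low cells lay above the highest among the high cells. Igfbp3, an insulin-like growth factor binding protein (chr11:7206086-7213923, minus strand), had 1000.5 and 175 CPM in the low cells of Zeb1 MSKO and 752 and 144 CPM in those of control, against 880 and 169 CPM (Zeb1 MSKO) and 698 and 148 CPM (control) in the high cells (0.08 ± 0.09). It separated the ages and not the contractile groups.

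The rule's own genes give the scale of the choice. Acta2 (mm10, chr19:34241090-34255590, minus strand) was at 1775 and 5643 CPM in the low cells of Zeb1 MSKO and 3774 and 4945 CPM in those of control, against 10016 and 18568 CPM (Zeb1 MSKO) and 14919 and 16433 CPM (control) in the high cells (-1.98 ± 0.36). Luminal progenitor barcodes had 51.7 to 151 CPM of Acta2, far under the low cells of every library, which follows in part from the basal score. The ratio was -2.07 ± 0.41 for Tagln (transgelin, an actin-binding protein), -2.12 ± 0.34 for Cnn1 (calponin, which restrains actomyosin), -1.86 ± 0.38 for Myl9 (the regulatory myosin light chain), -2.91 ± 0.77 for Actg2 (enteric smooth muscle actin) and -1.72 ± 0.13 for Tpm2 (a tropomyosin). Actg2 had the largest ratio and the largest spread. It had 21.6 and 262 CPM in the low cells of Zeb1 MSKO and 173 and 175 CPM in those of control, against 360 and 1416 CPM (Zeb1 MSKO) and 1125 and 960 CPM (control) in the high cells. Of the basal panel genes, Myh11 (smooth muscle myosin heavy chain) had a ratio of -1.75 ± 0.29, Oxtr (the oxytocin receptor) -0.65 ± 0.14, Krt5 -0.04 ± 0.14 and Trp63 (p63, the transcription factor of basal epithelia) 0.51 ± 0.33. Trp63 was at 171 and 61.9 CPM in the low cells of Zeb1 MSKO and 93.3 and 70.1 CPM in those of control, against 85.1 and 48.0 CPM (Zeb1 MSKO) and 74.8 and 55.1 CPM (control) in the high cells, higher in the low cells of all 4 libraries. A barcode low in Acta2, Cnn1 and Myh11 needed more of the other panel genes to reach the basal score, so the rule itself favours Trp63 and keratins in the low cells, and these ratios are no finding.

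Over all genes, 7015 had a mean of at least 10 CPM over the 8 sums. Of these, 83 (1.18%) were at least 1.5-fold lower and 42 (0.599%) at least 1.5-fold higher in the low cells of every library, and the median log2 ratio was 0.00. Because the rule used this contrast, these shares are the scale of the choice and not evidence for it. With equal numbers of cells per step of depth, 69 genes were lower and 28 higher, of which 61 and 24 were among those 83 and 42. Of the 39 genes named here for the low over high ratio, 33 stayed within 1 SD of their ratio with depth matched, and the other 6 were closer to 0, among them Slpi (0.90), Sfrp1 (1.26), Ptx3 (0.97) and Id3 (0.74). With cells ordered on one part of their UMIs and read from the rest, 81 were lower and 33 higher, of which 71 and 30 were shared, and all 39 named genes stayed within 1 SD.

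Genes of the contractile machinery outside the rule were lower with it. Of 30 listed smooth muscle genes, 25 were measured above 10 CPM, 17 of these were at least 1.5-fold lower in the low cells of every library, none was higher by that rule, and the median was -0.98. Mylk, the kinase that activates smooth muscle myosin (mm10, chr16:34745210-35002420, plus strand), had 150 and 362 CPM in the low cells of Zeb1 MSKO and 145 and 332 CPM in those of control, against 534 and 1044 CPM (Zeb1 MSKO) and 605 and 1139 CPM (control) in the high cells (-1.80 ± 0.22). Kcnmb1, the smooth muscle subunit of the calcium-activated potassium channel, had a ratio of -2.57 ± 0.66, Ppp1r14a, an inhibitor of myosin phosphatase, -1.98 ± 0.16, and Synpo2, an actin-bundling protein of the Z-disc, -1.84 ± 0.05. Csrp2, a LIM domain protein, was the exception, at 1.1 ± 0.75 and higher in every library.

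Fbxl22, a muscle F-box protein (mm10, chr9:66508459-66514593, minus strand), was the gene furthest down outside the panels among genes above 50 CPM. It had 3.35 and 25.7 CPM in the low cells of Zeb1 MSKO and 6.20 and 18.2 CPM in those of control, against 21.6 and 151 CPM (Zeb1 MSKO) and 65.9 and 138 CPM (control) in the high cells (-2.85 ± 0.36). Ckb, the brain creatine kinase that buffers ATP, had 35.8 to 56.8 CPM in the low cells and 132 to 204 CPM in the high cells (-1.76 ± 0.19). Igfbp2, an insulin-like growth factor binding protein, had 18.9 and 226 CPM in the low cells of Zeb1 MSKO and 156 and 119 CPM in those of control, against 226 and 726 CPM (Zeb1 MSKO) and 446 and 248 CPM (control) in the high cells (-1.95 ± 1.11). Its ratio varied most between libraries among the 15 named as lower. Csrp1, a LIM domain protein of actin filaments, had 865 to 1351 CPM in the low cells and 1833 to 2750 CPM in the high cells (-1.13 ± 0.09), and Postn, the matricellular protein periostin, had 269 to 386 CPM against 727 to 807 CPM (-1.15 ± 0.21). The other genes named by the rule for the largest ratios were Nkd1, Spon2, Hacd1, Prkcdbp, Nexn, Pdlim3, Bok, Cnn2 and Cbr2, with ratios from -1.26 to -1.06. Several of these, including Mylk, Csrp1, Nexn, Pdlim3 and Cnn2, are themselves smooth muscle or actin genes.

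The promoters of these genes were searched for the CArG box, which SRF binds, from 250 bases before to 50 bases after the start site in RefSeq's annotation of GRCm38.p6, on both strands. The box was present in 1 of the 4 rule genes found in the table (Myl9), in 3 of the 12 genes found among the 15 named as lower (Fbxl22, Cnn2 and Cbr2), in none of the 11 found among the 15 named as higher, and in 488 of all 27025 promoters (1.81%). The AP-1 site TGANTCA was present in none of the 4 rule genes, in 2 of the 12 lower genes (Igfbp2 and Mylk), in 1 of the 11 higher genes (Plet1) and in 8.97% of all promoters. The 4 stretches with a CArG box are shown because they join a gene used by the rule with genes it did not use. The box is in capitals, and each stretch is written 5′ to 3′ on the strand of the gene. Its first base lies 161 bases before the start site in Myl9 (chr2:156775263-156775352, plus strand), 222 in Fbxl22 (chr9:66514766-66514843, minus strand), 56 in Cnn2 (chr10:79988504-79988593, plus strand) and 108 in Cbr2 (chr11:120732080-120732169, minus strand).
Myl9: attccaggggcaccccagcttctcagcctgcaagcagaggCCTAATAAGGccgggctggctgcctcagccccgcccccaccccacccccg
Fbxl22: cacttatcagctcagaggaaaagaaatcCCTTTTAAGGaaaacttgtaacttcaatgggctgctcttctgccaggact
Cnn2: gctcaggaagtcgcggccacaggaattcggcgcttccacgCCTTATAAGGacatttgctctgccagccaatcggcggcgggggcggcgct
Cbr2: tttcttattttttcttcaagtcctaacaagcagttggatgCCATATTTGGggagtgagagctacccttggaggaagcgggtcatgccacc
A match of letters is a description and not a binding site, and no binding was measured here.

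The transcript of Srf was lower in the low cells, at 15.8 and 32.0 CPM in Zeb1 MSKO and 15.7 and 32.1 CPM in control, against 22.5 and 42.5 CPM (Zeb1 MSKO) and 30.9 and 45.8 CPM (control) in the high cells (-0.59 ± 0.25). No member of the SRF and myocardin list passed 1.5-fold in every library, 7 of 9 members were measured, and the median was -0.17.

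Among the genes that were higher in the low cells, several are secreted. Chil1, a chitinase-like glycoprotein (mm10, chr1:134182176-134190181, plus strand), had 1654 and 1073 CPM in the low cells of Zeb1 MSKO and 1210.0 and 2221 CPM in those of control, against 560 and 306 CPM (Zeb1 MSKO) and 215 and 506 CPM (control) in the high cells (2.0 ± 0.40). Sfrp1, a secreted Wnt antagonist (chr8:23411502-23449632, plus strand), had 176 and 41.9 CPM in the low cells of Zeb1 MSKO and 115 and 81.0 CPM in those of control, against 62.9 and 14.6 CPM (Zeb1 MSKO) and 36.0 and 28.0 CPM (control) in the high cells (1.54 ± 0.08). Its level ranged widely between libraries, while the ratio was nearly the same in each. Ptx3, a pentraxin of innate immunity, had 733 and 157 CPM in the low cells of Zeb1 MSKO and 292 and 336 CPM in those of control, against 354 and 71.7 CPM (Zeb1 MSKO) and 102 and 156 CPM (control) in the high cells (1.20 ± 0.21). The neutrophil chemokines Cxcl1 and Cxcl2 had ratios of 1.0 ± 0.36 and 1.24 ± 0.94. Cxcl2 was at 2.34 CPM in the low cells and 2.3 CPM in the high cells of the Zeb1 MSKO library at 9 weeks, so in that library it did not separate them.

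Tspan8 had the largest ratio among genes above 50 CPM, 2.18 ± 0.43. This tetraspanin (mm10, chr10:115816832-115849893, plus strand) is known in the mouse gland as a surface marker of a subset of basal stem cells, and is also expressed by luminal progenitors. It had 258 and 89.5 CPM in the low cells of Zeb1 MSKO and 259 and 203 CPM in those of control, against 85.3 and 16.2 CPM (Zeb1 MSKO) and 43.5 and 46.4 CPM (control) in the high cells. Luminal progenitor barcodes had 249 to 419 CPM and hormone-sensing barcodes 6.85 to 19.9 CPM. Along the 10 steps of contractile level, Tspan8 stood at 302 and 153 CPM in the first step of Zeb1 MSKO and 439 and 281 CPM in that of control, against 55.5 and 9.29 CPM (Zeb1 MSKO) and 21.9 and 29.1 CPM (control) in the last step.

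Id3, a helix-loop-helix inhibitor induced by BMP signals (mm10, chr4:136143497-136145755, plus strand), had 448 and 436 CPM in the low cells of Zeb1 MSKO and 513 and 921 CPM in those of control, against 208 and 212 CPM (Zeb1 MSKO) and 215 and 476 CPM (control) in the high cells (1.09 ± 0.13). The control library at 9 weeks was the highest in both groups. The other genes named by the rule were Ddit4 (an inhibitor of mTORC1, 1.04 ± 0.23), Mfap2 (a microfibril protein, 1.02 ± 0.34), Pdgfrl, Plet1, Clu (clusterin, a secreted chaperone), Lypd3 and Ly6d (GPI-anchored proteins of the Ly6 family), the last 5 with ratios from 0.94 to 0.96. Of these, 3 moved by more than 1 SD without doublets and barcodes carrying skin or fibroblast transcripts, to 0.45 for Plet1, 0.32 for Clu and 0.64 for Ly6d. Without doublets and low-quality barcodes Plet1 moved to 0.43. Luminal progenitor barcodes had 1929 to 5583 CPM of Plet1 and 1055 to 1573 CPM of Clu.

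**Figure D2:**
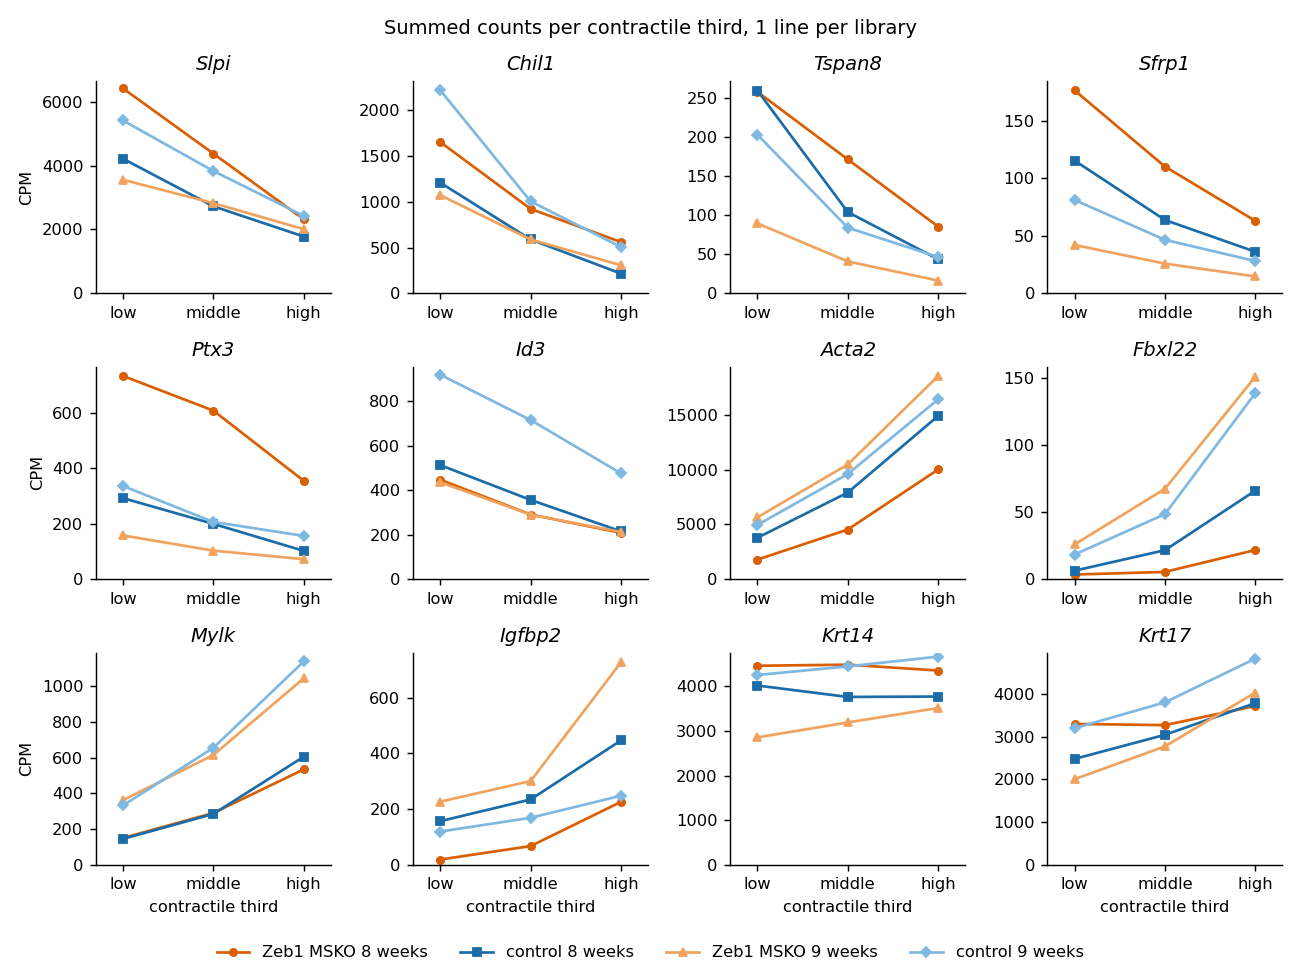
CPM of the summed counts of the low, middle and high cells for 12 genes, 1 line per library, each axis starting at 0. Slpi, Chil1, Tspan8, Sfrp1, Ptx3 and Id3 step down and Acta2, Fbxl22, Mylk and Igfbp2 step up through the middle cells in each library, while Krt14 changes by little.

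**Figure D3:**
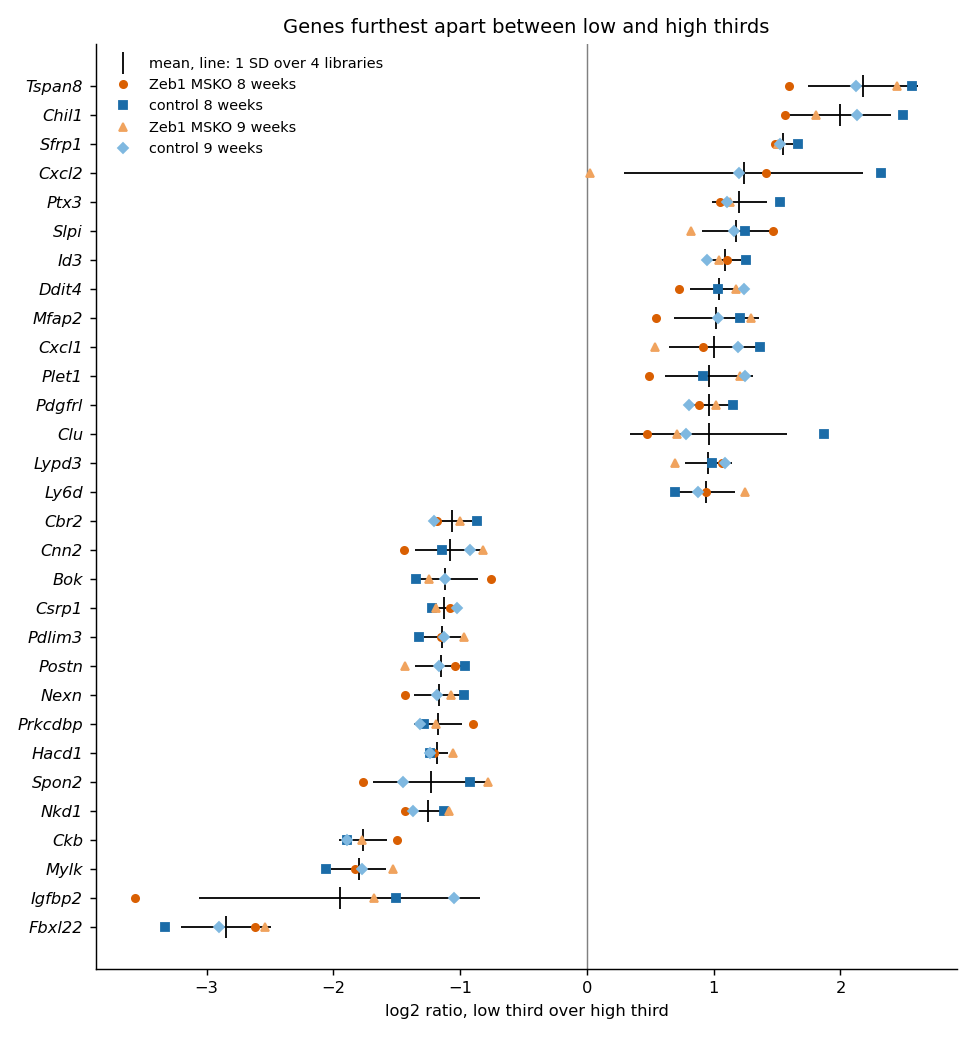
Log2 ratio of low over high cells for the 15 genes with the largest mean ratio and the same sign in every library in each direction, 1 point per library, with a tick at the mean and a line of 1 SD on each side over 4 libraries. That every point lies on its gene's side of 0 follows from the choice. Cxcl2, Clu and Igfbp2 have the widest lines.

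Shares of cells with a UMI were compared after each barcode was thinned to 2000 UMIs, which left out no barcode, and Wilson intervals at 95% cover counting error only. Slpi was detected in 86.8% (85.0 to 88.4) and 81.4% (78.6 to 84.0) of the low cells of Zeb1 MSKO and 83.2% (80.0 to 86.1) and 87.8% (85.2 to 90.1) of those of control, against 65.5% (63.1 to 67.8) and 69.6% (66.4 to 72.7) of the high cells of Zeb1 MSKO and 66.7% (62.7 to 70.4) and 67.4% (63.8 to 70.8) of those of control. Hormone-sensing barcodes, which should lack it, showed 31.5% in the Zeb1 MSKO library at 8 weeks and 4.16% to 6.43% in the others, at median depths of 14053.5 to 17315 UMIs before thinning. Unthinned shares of Slpi were 90.5% to 94.7% in the low cells and 83.8% to 86.3% in the high cells. Tspan8 was detected in 28.1% (25.9 to 30.4) and 12.7% (10.5 to 15.2) of the low cells of Zeb1 MSKO and 28.2% (24.7 to 32.0) and 23.5% (20.5 to 26.7) of those of control, against 10.6% (9.15 to 12.2) and 2.89% (1.93 to 4.29) of the high cells of Zeb1 MSKO and 5.81% (4.19 to 8.01) and 6.29% (4.72 to 8.34) of those of control. Hormone-sensing barcodes showed 1.28% to 2.09%. Unthinned, the shares of Tspan8 were 20.6% to 44.1% in the low cells and 7.28% to 20.7% in the high cells. Most low cells thus had no detected Tspan8, whereas most had Slpi.

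The share of Krt14 in hormone-sensing barcodes was 28.2% in the Zeb1 MSKO library at 8 weeks and 4.74% to 6.92% in the other libraries, and in luminal progenitor barcodes Krt14 stood at 242 CPM in that library and 43.4 to 55.7 CPM in the others. Basal transcripts outside basal cells were thus more frequent in that library. Its part in the levels of the low cells was not tested.

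Of the 38 gene lists other than the rule's own panels, most had medians close to the 0.00 of all genes. Immediate early genes stood out by direction: 24 of 25 were measured and 20 were higher in the low cells of all 4 libraries. Of these, 1 (Fos) passed 1.5-fold in each, and the median was 0.39. Over all gene symbols measured, 1431 of 7014 were higher in all 4. Fos, the partner of Jun in the AP-1 factor, had 946 and 1040 CPM in the low cells of Zeb1 MSKO and 723 and 664 CPM in those of control, against 552 and 567 CPM (Zeb1 MSKO) and 416 and 388 CPM (control) in the high cells (0.81 ± 0.05). Jun had a ratio of 0.54 ± 0.08 and Egr1 0.61 ± 0.23. These genes respond to tissue dissociation as well as to growth signals, and the part of dissociation was not tested.

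In the TGF-beta, activin and BMP list, 16 of 24 were measured, 2 passed 1.5-fold higher in each library (Id1 and Id3) and the median was 0.05. Id1, a second inhibitor of the same family, had 61.6 and 47.6 CPM in the low cells of Zeb1 MSKO and 53.9 and 109 CPM in those of control, against 18.7 and 22.4 CPM (Zeb1 MSKO) and 16.6 and 45.2 CPM (control) in the high cells (1.43 ± 0.31). Id2 and Smad7, a feedback inhibitor of the pathway, both had 0.64. Notch1, a Notch receptor, had 25.0 and 10.9 CPM in the low cells of Zeb1 MSKO and 14.1 and 11.9 CPM in those of control, against 13.01 and 5.0 CPM (Zeb1 MSKO) and 7.14 and 5.69 CPM (control) in the high cells (1.0 ± 0.07). It was the 1 member of 7 measured in the Notch list to pass, with a list median of 0.15. In the Wnt list of 19 measured genes, Sfrp1 passed as higher, Nkd1 and Wnt5b (a non-canonical ligand, -0.82 ± 0.20) as lower, and the median was 0.02.

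Of the stem and progenitor list, 9 of 19 genes were measured, Tspan8 passed as higher, and the median was 0.13. Lgr5, an R-spondin receptor, had 78.7 and 59.9 CPM in the low cells of Zeb1 MSKO and 56.5 and 57.5 CPM in those of control, against 46.5 and 50.8 CPM (Zeb1 MSKO) and 41.2 and 39.8 CPM (control) in the high cells (0.49 ± 0.22). Sox9 had 0.41 ± 0.07. After thinning, Lgr5 was found in 14.6% and 13.2% of the low cells of Zeb1 MSKO and 10.3% and 11.4% of those of control, against 8.33% and 9.41% of the high cells of Zeb1 MSKO, 6.84% and 8.01% of those of control and 0.0412% to 1.0% of hormone-sensing barcodes.

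Among the adhesion and matrix lists, 17 keratin and hemidesmosome or desmosome genes had a median of -0.17 and 14 basement membrane genes a median of -0.22. In each list 1 gene passed, as lower: Krt15 in the first and Postn in the second. Krt15, a basal keratin, had 280 and 234 CPM in the low cells of Zeb1 MSKO and 513 and 352 CPM in those of control, against 440 and 472 CPM (Zeb1 MSKO) and 1099 and 935 CPM (control) in the high cells (-1.04 ± 0.31). Junction genes had a median of 0.17 over 15 genes, with Cldn4, a claudin of tight junctions, passing as higher (1.03 ± 0.40). In the list of protease inhibitors Slpi passed as higher among 8 (median 0.44), and among 9 insulin-like growth factor binding genes Igfbp2 passed as lower (0.08). The 9 matrix metalloproteinase genes had a median of 0.40 with none passing, including Mmp2 (0.75 ± 0.28) and Adamts5 (0.91 ± 0.38).

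No gene passed in either direction among 17 YAP and TAZ targets (median -0.15), 16 NF-kB targets and chemokines (0.00), 14 heat shock chaperones (0.15), 12 MHC genes (-0.15), 9 interferon-stimulated genes (-0.13), 13 metallothionein and NRF2 genes (0.11), 18 glycolysis and hypoxia genes (-0.05), 13 growth factor genes (0.09), 9 S phase genes (-0.03), 6 G2 and M phase genes (0.25), 8 hormone receptor targets (0.09) or 6 EMT and mesenchymal genes (-0.24). In the p53 list of 12 genes Ddit4 passed as higher, with a median of 0.13. Ribosomal protein genes differed by little but mostly in 1 direction: 60 of 82 were higher in all 4 libraries, with a median of 0.10. Over all gene symbols measured, 1431 of 7014 were higher in all 4.

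**Figure D4:**
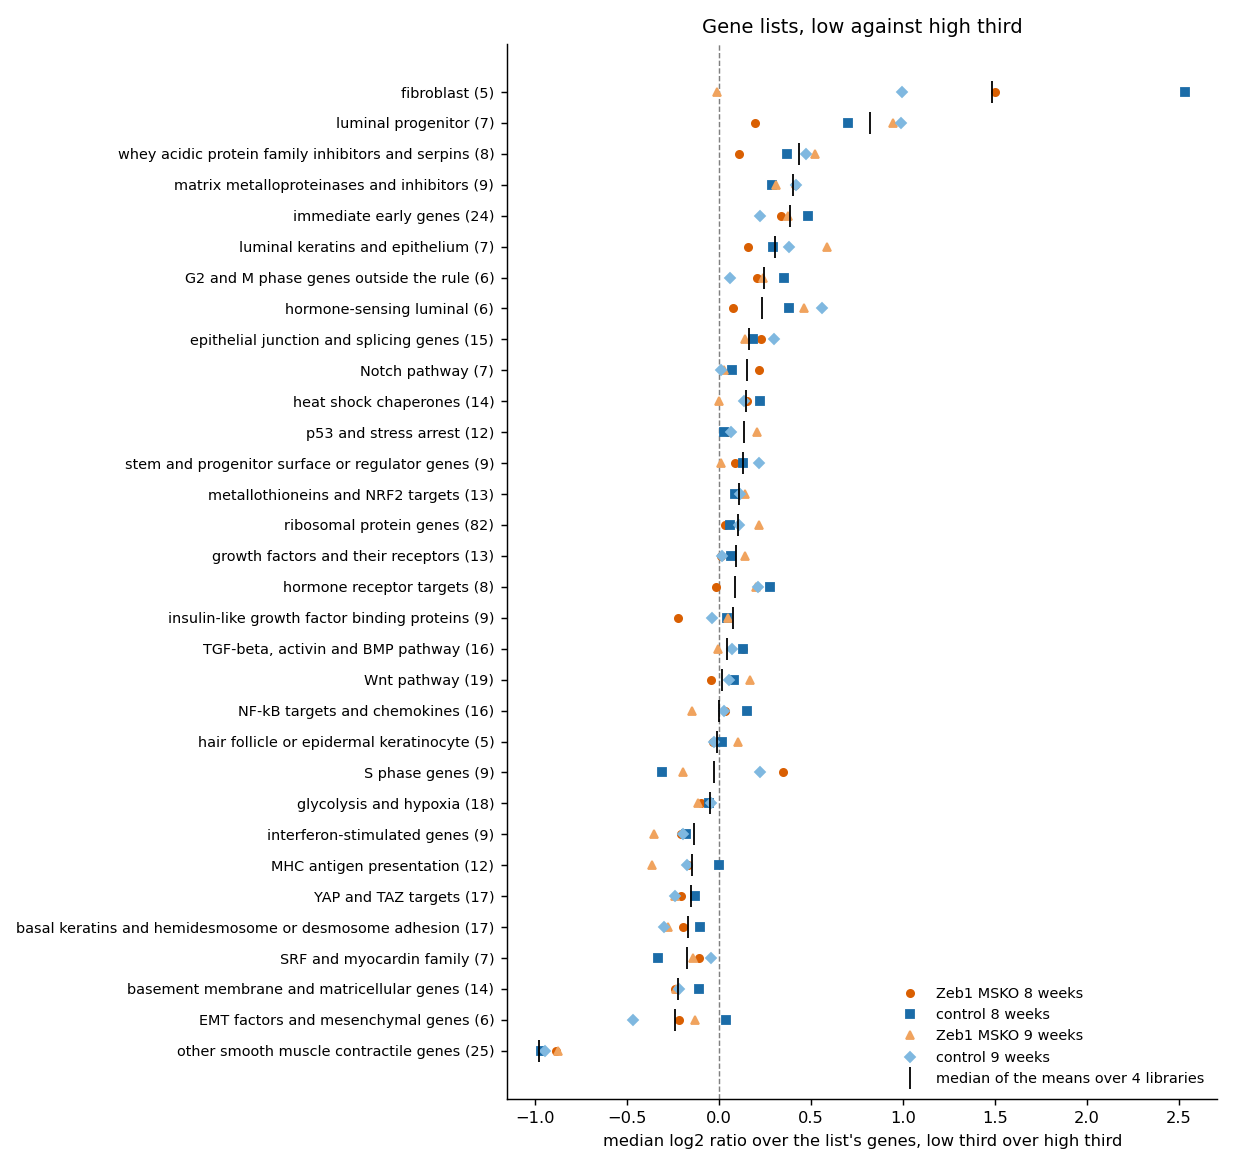
Median log2 ratio of low over high cells over the genes of each list measured above 10 CPM (number in brackets), 1 point per library and a tick at the median of the means over 4 libraries, for lists with at least 5 such genes. The contractile genes outside the rule lie near -1 in every library, and the fibroblast list, of 5 genes, spreads from near 0 to above 2.5.

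Transcripts of other cell types differed between low and high cells, but not in the same direction in every list and library. Of 12 luminal progenitor markers 7 were measured, with a median of 0.82 and none passing 1.5-fold in each library. Their summed level was 1049 and 1412 CPM in the low cells of Zeb1 MSKO and 1143 and 1469 CPM in those of control, against 1158 and 956 CPM (Zeb1 MSKO) and 863 and 901 CPM (control) in the high cells. Csn3, a milk casein, was found after thinning in 7.82% to 11.8% of the low cells and in 7.73% to 12.9% of hormone-sensing barcodes, and Wfdc18 in 11.3% to 22.4% and 8.81% to 22.8%. Within each library the 95% Wilson intervals of the low cells and the hormone-sensing barcodes overlapped for both genes. These intervals cover counting error only, and their overlap does not show equal shares. The summed levels were not all alike: at 9 weeks Csn3 had 204 CPM in the low cells of Zeb1 MSKO and 178 CPM in those of control, against 108 and 109 CPM in hormone-sensing barcodes, so a level above free RNA in some low cells was not tested. Trf, transferrin, was found more often than in hormone-sensing barcodes, at 34.7% to 45.2% of the low cells, against 22.6% to 28.3% of the high cells and 3.37% to 6.14% of hormone-sensing barcodes. The median barcode held 2 or 3 UMIs of the luminal progenitor panel among the low cells and 2 among the high cells. Luminal progenitor barcodes held 132 to 149. Csn3, Wfdc18 and Trf belong to that panel. Its score was used to choose the low, luminal progenitor and hormone-sensing barcodes, so these differences follow in part from the rule.

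Luminal keratin and epithelial markers (7 of 8 measured) had a median of 0.31 with Cldn4 passing, and hormone-sensing markers (6 of 10 measured) a median of 0.24 with Ly6a passing. Ly6a and most of the hormone-sensing markers belong to the rule's hormone-sensing panel. Its score helped choose these barcodes, so their differences follow in part from the rule. The summed hormone-sensing markers were at 287 to 336 CPM in the low cells and 200 to 280 CPM in the high cells, with Cbln2 at 0. Fibroblast markers summed to 1628 and 569 CPM in the low cells of Zeb1 MSKO and 1172 and 871 CPM in those of control, against 1077 and 591 CPM (Zeb1 MSKO) and 659 and 882 CPM (control) in the high cells. The median over their 5 measured genes was 1.49, led by the collagens Col1a1 (2.16 ± 1.64) and Col3a1 (1.74 ± 1.90), with Col1a2 passing 1.5-fold in each library. Without Gsn, Lox and Dcn, 24 low cells, 14 middle cells and 8 high cells held 5 or more UMIs of these markers. Gsn and Dcn were taken to be abundant in basal cells. The summed levels above include them, so they are not a measure of fibroblast RNA alone. Transcripts of Gjb2, Krt75 and Gjb6, expressed in hair follicle and epidermis, reached 3 or more UMIs in 52 low cells, 51 of them in the Zeb1 MSKO library at 8 weeks, in 4 middle cells and in no high cell. Endothelial, pericyte, lymphocyte and adipocyte markers summed to at most 43.3 CPM in the low cells, with Cd3g and Lep at 0, which allows up to 0.119 CPM over the 25271650 UMIs of the low cells. Skeletal muscle markers summed to 2.28 to 33.9 CPM, against 5.84 to 184 CPM in the high cells, and macrophage markers to 48.8 to 137 CPM, against 42.6 to 129 CPM. Schwann cell markers summed to 62.8 to 114 CPM, against 62.3 to 94.3 CPM, and keratinocyte markers, many of which basal cells also express, to 2289 to 2742 CPM, against 2192 to 2548 CPM.

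Without doublets and all barcodes with those skin or fibroblast transcripts, 87 genes were lower and 35 higher by the same rule, of which 80 and 31 were among the 83 and 42. Of the 39 named genes 36 stayed within 1 SD of their ratio, and the others were Plet1, Clu and Ly6d. A second kind of heterogeneity, barcodes with 3 or more UMIs of Serpinb11, Sema3b, Col9a1 and Wnt6 together, differed in direction between libraries. In Zeb1 MSKO at 8 weeks these were 0.256% of the low, 1.22% of the middle and 2.05% of the high cells. In Zeb1 MSKO at 9 weeks they were 10.4% of the low, 8.28% of the middle and 8.66% of the high cells. In control they were 7.35%, 8.69% and 6.84% at 8 weeks and 5.44%, 4.86% and 3.86% at 9 weeks, in the same order. These shares were not adjusted for depth.

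Between genotypes, no gene passed in the low cells in the main fit. That fit had no term for age, so the spread within each genotype is that between its 8-week and its 9-week library. Between ages 497 genes were called, so a lack of calls here does not show that the genotypes are alike. Of 11338 genes tested, 0 (0%) had an adjusted p under 0.05 by edgeR's quasi-likelihood test with Benjamini-Hochberg adjustment, 53 had an unadjusted p under 0.05, and DESeq2's Wald test called 2. With age, which the replicate number marks, as a block, 28 genes passed in edgeR, 12 of them higher in Zeb1 MSKO and 16 lower. Leaving out 1 library gave 0 calls without the Zeb1 MSKO library at 8 weeks, 13 without that at 9 weeks, and 24 each without the 8-week or the 9-week control library.

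The genes with the lowest p are given with their values and did not pass. Rps26-ps1, a processed pseudogene whose reads can be shared with Rps26, had 272 and 223 CPM in Zeb1 MSKO and 102 and 59.6 CPM in control (log2 fold change 1.57, SE 0.37, edgeR adjusted p = 1). Igfbp5, which binds insulin-like growth factors, had 1245.5 and 1803.5 CPM in Zeb1 MSKO and 800.0 and 878 CPM in control (0.82, SE 0.27). Fabp5, an epidermal fatty acid binding protein, had 396 and 292 CPM in Zeb1 MSKO and 176 and 222 CPM in control (0.75, SE 0.31). In each, both Zeb1 MSKO libraries lay above both control libraries. Plac8 had 12.9 and 26.8 CPM in Zeb1 MSKO and 5.96 and 4.73 CPM in control. Gjb2, a connexin of skin, had 133 and 2.34 CPM in Zeb1 MSKO and 0.716 and 0.701 CPM in control, and 1160 of its 1196 UMIs in the Zeb1 MSKO library at 8 weeks were in barcodes set apart as doublets or by skin or fibroblast transcripts. Gm26917 and AY036118 lie at one locus of chromosome 17, where reads cannot be assigned with certainty, and with Trmt61a, Cldn10 and Nme2 they had log2 fold changes from 1.1 to 1.44.

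Rrad, a small GTPase of muscle, was the gene with the lowest p on the lower side, with 7.03 and 7.33 CPM in Zeb1 MSKO and 37.0 and 17.0 CPM in control (-1.95, SE 0.45, edgeR adjusted p = 1). Cd74, the invariant chain of MHC class II, had 34.0 and 57.4 CPM in Zeb1 MSKO and 120 and 109 CPM in control (-1.37, SE 0.35), and H2-Aa and H2-Ab1, which encode class II chains, had -1.28 and -0.98. Krt15 had 280 and 234 CPM in Zeb1 MSKO and 513 and 352 CPM in control (-0.79, SE 0.32). Mt2, a metallothionein, had 3592 and 3153 CPM in Zeb1 MSKO and 4062 and 5918 CPM in control (-0.60, SE 0.24). The remaining genes by p were Tmem45a, BC026585, Aldh1a3 and Ccl21a. All 10 had an edgeR adjusted p of 1. Both Zeb1 MSKO libraries lay below both control libraries for each but Ccl21a.

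By size alone, 17 of 7025 genes (0.242%) were at least 1.5-fold higher in Zeb1 MSKO at both ages and 24 (0.342%) at least 1.5-fold lower. The MHC list held 4 of the lower genes among its 14 with a mean of at least 10 CPM. Macrophage markers held 1, Cd74, which is also in the MHC list. The lists of basement membrane genes, basal keratins, Wnt genes, growth factors and luminal progenitor markers held 1 each. On the higher side the insulin-like growth factor binding genes, the immediate early genes and the metallothionein and NRF2 genes held 1 each. Every other list outside the rule's panels held none. The marker genes did not pass: log2 fold changes were 0.02 (SE 0.31) for Slpi, -0.21 (SE 0.27) for Krt14, -0.13 (SE 0.30) for Krt17 and 0.36 (SE 0.91) for Igfbp3. The rule's contractile genes had fold changes from -0.59 to -0.14, with a median of -1.04 at 8 weeks and 0.19 at 9 weeks. These genes set the boundary of each library. At 8 weeks it was 62.7 CP10k in Zeb1 MSKO and 118.4 CP10k in control, and at 9 weeks 157.6 and 148.5 CP10k. For these genes, and for others that move with the contractile level, a genotype difference cannot be told apart from the choice of cells.

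Because the rule takes the same part of every library, the number of low cells says nothing of the genotype, and a common boundary was applied. Under 1 boundary of 121.8 CP10k, the mean of the 4 libraries' own, lay 65.5% (64.1 to 66.8) and 20.1% (18.5 to 21.7) of the non-cycling basal barcodes of Zeb1 MSKO and 35.3% (33.1 to 37.6) and 23.1% (21.4 to 25.0) of those of control. The means were 42.8 ± 32.1% in Zeb1 MSKO and 29.2 ± 8.64% in control (SD, n = 2 each), a difference of 13.5 points with a two-sided exact permutation p of 1, where 2 against 2 libraries cannot go below 0.333. At 8 weeks the share was 30.1 points higher in Zeb1 MSKO, and at 9 weeks 3.05 points lower. The sign of the mean difference rested on 1 library: it was -9.16 points without the Zeb1 MSKO library at 8 weeks, 36.2 without that at 9 weeks, 19.6 without the control library at 8 weeks and 7.43 without that at 9 weeks.

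Between ages, many genes differed in the low cells, and most were lower at 9 weeks. No source used here says whether the libraries of the 2 ages were sequenced and counted alike, so age cannot be told apart from such a difference in any value that follows. edgeR's quasi-likelihood test called 78 genes higher (0.688%) and 419 lower (3.7%) at 9 weeks of 11338 tested, and 2654 had an unadjusted p under 0.05. DESeq2 called 489 and a fit with genotype as a term 781. The count was 529 or 144 when the 8-week or the 9-week Zeb1 MSKO library was left out, and 1302 or 896 when the 8-week or the 9-week control library was left out.

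Cebpb, a transcription factor of epithelial differentiation and inflammation (mm10, chr2:167688915-167690418, plus strand), fell to 26.8 CPM in Zeb1 MSKO and 30.5 CPM in control at 9 weeks, against 3055.5 and 2249 CPM at 8 weeks (log2 fold change -6.58, SE 0.25, edgeR adjusted p = 2.6e-06). At 8 weeks 1555 of 1560 low cells of Zeb1 MSKO and 579 of 585 of control held a Cebpb UMI. At 9 weeks 156 of 797 and 138 of 699 did. The fall was not particular to the low cells: luminal progenitor barcodes had log2 ratios of -6.68 in Zeb1 MSKO and -5.92 in control, and hormone-sensing barcodes -6.53 and -5.93. Pairs of values that follow give Zeb1 MSKO and then control. C2cd4b fell to 1.40 and 1.23 CPM at 9 weeks, against 104 and 90.6 CPM at 8 weeks (-6.24, SE 0.29, adjusted p = 9.57e-06 by edgeR). Id4, a helix-loop-helix inhibitor expressed in basal cells, fell to 16.7 and 9.99 CPM, against 182 and 218 CPM (-3.95, SE 0.28, adjusted p = 0.000155 by edgeR), and Alyref, an mRNA export adaptor, to 7.02 and 6.31 CPM, against 72.1 and 83.2 CPM (-3.59, SE 0.24). Tmem158, Akirin2, Cited2, Mtch1 and Glycam1 fell as well, by 2.75 to 6.09 on the log2 scale. Alyref, Akirin2, Mtch1 and Cited2 were lower at 9 weeks by 2.07 to 3.70 in luminal progenitor barcodes too.

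Inflammatory and stress genes were among those that fell. Over all genes tested, 3.7% were called lower and 0.688% higher at 9 weeks. Of 21 NF-kB targets and chemokines tested, 7 were lower at 9 weeks (Nfkbia, Tnfaip3, Tnf, Cxcl1, Cxcl2, Ccl2 and Icam1), none was higher, and the median was -0.73. Cxcl1 fell to 131 and 126 CPM at 9 weeks, against 899 and 755 CPM at 8 weeks (-2.73, SE 0.20, edgeR adjusted p = 0.000155). Of 14 heat shock chaperones 7 were lower (Hspa1a, Hspa8, Hsph1, Dnaja1, Hsp90aa1, Hspd1 and Hspa5), with a median of -0.88. Hspa1a fell to 313 and 193 CPM, against 687 and 738 CPM (-1.55, edgeR adjusted p = 0.00907). Igfbp3 fell to 175 and 144 CPM, against 1000.5 and 752 CPM (-2.51, SE 0.21, edgeR adjusted p = 0.000438). Fibroblast markers (6 of 10 lower, median -2.53) and endothelial markers (4 of 5 lower, median -4.41) were also lower at 9 weeks, and the median over all genes was 0.02.

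Some contractile genes rose at 9 weeks, when 0.688% of all genes tested were called higher. Of 29 tested contractile genes outside the rule, 5 were higher (Mylk, Lmod1, Cnn2, Mrvi1 and Kcnmb1), none was lower, and the median was 0.29. Mylk rose to 362 and 332 CPM at 9 weeks, against 150 and 145 CPM at 8 weeks (1.18, SE 0.19, edgeR adjusted p = 0.0104), but with 1 common boundary in place of each library's own its change was 0.64 and did not pass (adjusted p over the alternatives 4.78e-06 to 0.128). Fbxl22 rose to 25.7 and 18.2 CPM, against 3.35 and 6.20 CPM (2.23, SE 0.34, edgeR adjusted p = 0.00958). Its log2 ratio was 3.61 in Zeb1 MSKO and 1.16 in control in the middle cells, and 2.79 and 1.07 in the high cells. Mylk rose in those cells by 0.91 to 1.20. Srf (0.97), Oxtr (1.26) and Myh11 (0.96) passed as well, and Oxtr and Myh11 belong to the rule's basal panel. None of the rule's 6 contractile genes passed, with a median of 0.89. The boundary that defines the low cells was itself higher at 9 weeks in both genotypes. A rise of contractile genes therefore cannot be told apart from the choice of cells. With the common boundary the change of Fbxl22 was 1.75 (edgeR adjusted p = 0.0196). Under that boundary lay 3065 of 4682 non-cycling basal barcodes of Zeb1 MSKO at 8 weeks and 480 of 2391 at 9 weeks. In control it held 621 of 1757 and 485 of 2097. Contractile levels under it were not matched between ages, so it does not remove this limit. Apart from Mylk and Fbxl22, the contractile genes that passed are not given with that boundary.

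Socs3, a feedback inhibitor of cytokine signalling (mm10, chr11:117966079-117970047, minus strand), rose to 851 CPM in Zeb1 MSKO and 609 CPM in control at 9 weeks, against 256 and 266 CPM at 8 weeks (1.43, SE 0.21, edgeR adjusted p = 0.00731). The rise was not particular to the low cells: the log2 ratio of Socs3 was 1.89 and 1.22 in the middle cells and 1.68 and 1.47 in the high cells. In luminal progenitor barcodes its log2 ratio was -0.25 in Zeb1 MSKO and -0.63 in control, and in hormone-sensing barcodes 0.97 and 0.79. These differences between classes were not tested. Prlr, the prolactin receptor, rose to 52.7 and 48.9 CPM, against 18.9 and 20.8 CPM (1.31, SE 0.21, edgeR adjusted p = 0.0112), but without doublets its change was 0.45 and did not pass (adjusted p over the alternatives 9.26e-06 to 0.292). It belongs to the rule's hormone-sensing panel, whose score helped choose the low cells. Scx (scleraxis, a transcription factor of tendon), Fam101b, Gm42418 (at the same chromosome 17 locus as Gm26917), Crispld2, Akr7a5 and Rras rose by 1.09 to 1.69. Of these, Rras lost its call in 3 of 13 alternatives.

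**Figure D5:**
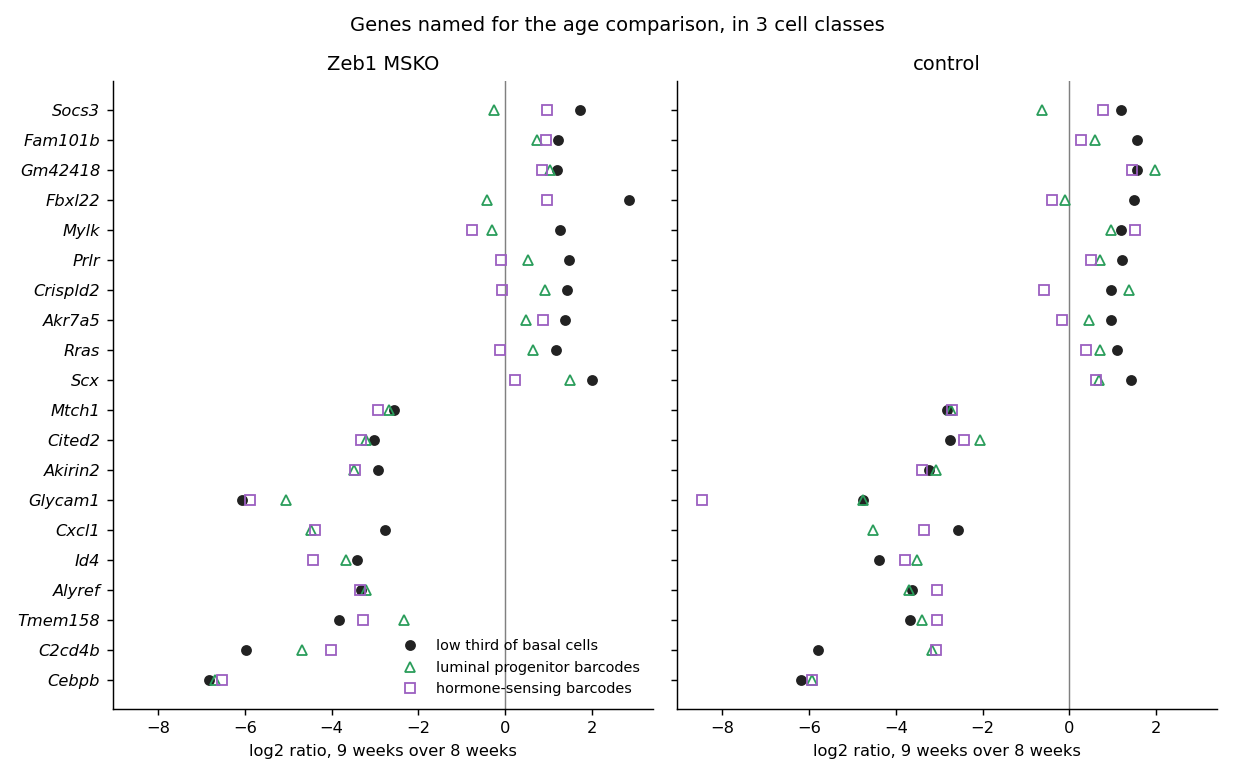
Log2 ratio of CPM at 9 over 8 weeks for the 20 genes named in the age comparison, in low basal cells, luminal progenitor barcodes and hormone-sensing barcodes, for Zeb1 MSKO (left) and control (right). The genes that fell lie left of 0 in all 3 classes. Socs3 and Fbxl22 lie right of 0 in the low cells of both genotypes but not in luminal progenitor barcodes. The middle and high cells, where both genes also rose, are not drawn.

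The difference between low and high cells itself was compared between genotypes, with library as a block. Of 11817 genes tested by edgeR's quasi-likelihood test, 3 passed (0.0254%), each with a more negative low over high ratio in Zeb1 MSKO, and 337 had an unadjusted p under 0.05. DESeq2 called 1 (Rrad). Rrad (mm10, chr8:104628070-104631327, minus strand) had 7.03 and 7.33 CPM in the low cells and 20.2 and 8.93 CPM in the high cells of Zeb1 MSKO, and 37.0 and 17.0 CPM in the low cells and 10.7 and 4.94 CPM in the high cells of control. The ratio was -1.49 and -0.27 in Zeb1 MSKO and 1.75 and 1.72 in control, a difference of -2.80 (SE 0.35, edgeR adjusted p = 0.0155). Few cells carried it: 3 of 585 low cells of the control library at 8 weeks held 113 of the 155 Rrad UMIs there. Ubd, a ubiquitin-like protein induced by interferon and TNF, had 0.558 and 4.05 CPM in the low cells and 3.02 and 12.2 CPM in the high cells of Zeb1 MSKO, and 8.59 and 6.14 CPM in the low cells and 2.50 and 1.95 CPM in the high cells of control (-3.50, SE 0.45, edgeR adjusted p = 0.0155). Of its 36 UMIs in the low cells of the control library at 8 weeks, 23 came from 1 barcode and 31 from doublets or barcodes with skin or fibroblast transcripts. Without such barcodes the difference for Ubd was -2.24 and was not called. Ccl21a had a difference of -8.38 (SE 0.61, edgeR adjusted p = 0.000102), but 394 of its 395 UMIs in the low cells of the control library at 8 weeks came from 1 barcode. The count of genes was 76 without the Zeb1 MSKO library at 8 weeks, 172 without that at 9 weeks, 4 when the 8-week control library was left out and 7 when the 9-week control library was.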

How the data were processed

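Cells sorted by flow cytometry were captured with the 10x Chromium 3′ v2 chemistry, per the labels' protocols. The matrix deposited by the authors gives raw UMI counts, made with Cell Ranger 2.1.0 and mm10 per the submitters' processing notes, for 4 libraries told apart by the barcode suffix. No source used here says whether depth was equalised. It holds 36884 barcodes over 27998 genes and no barcode under 2566 UMIs.

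Counts were summed over the low cells, and over the high cells, of each library (Python 3.11.15, numpy 2.4.6, scipy 1.17.1, pandas 2.3.3). Genes passing filterByExpr were tested with edgeR 4.0.16 (TMM, quasi-likelihood, Benjamini-Hochberg, threshold 0.05) in R 4.3.3, with DESeq2 1.42.0 as an alternative. edgeR was checked on simulated counts with an assumed dispersion of 0.02. Changes of 1 and 2 log2 units were recovered in 81% and 100% (genotype, 12 false calls) and 80% and 100% (age, 5 false calls). For the genotype difference of the low minus high difference they were recovered in 31% and 99% (4 false calls). The simulated genotype comparison held no age difference, so its figures are not the power of that test in these data. Low over high ratios used 2 prior counts. Doublets were called with Scrublet in scanpy 1.11.5 (expected rate 8%, 2 simulated per barcode, 30 components), which recovered 49.9% to 64.6% of simulated doublets. They were kept in the main values. Gene coordinates came from GENCODE vM21.

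Named genes were the markers and rule genes; the 15 genes above 50 CPM with the largest low over high ratio in each direction and the same sign in every library; for genotype and age the 10 genes above 10 CPM with the lowest p in each direction, moving the same way in both pairs; and up to 4 members of each list. The Rrad, Ubd and Ccl21a calls, and counts of UMIs in single barcodes, were added after their values were seen. Replicates were numbered 1 at 8 weeks and 2 at 9 weeks from the ages in the labels, so the number pairs the genotypes by age only. The members, lists and tests were chosen with earlier results of these data known. Alternatives were scaling, filters, tool, block, left-out libraries, other boundaries, depth matching, and removal of doublets or of barcodes with other cells' transcripts. Depth matching and the removal of barcodes with other cells' transcripts were chosen after seeing the data.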

Additional observations from a re-analysis of the deposited data

Results flagged for a closer look

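The ratio of low to high cells differed between genotypes for 3 genes by edgeR's quasi-likelihood test of the difference itself: Ccl21a by -8.38, Rrad by -2.80 and Ubd by -3.50 on the log2 scale. Ccl21a had 22 and 0 UMIs in the low cells of Zeb1 MSKO and 395 and 2 UMIs in those of control, and 1 barcode held 394 of them. A count of 0 allows up to 0.468 CPM in the Zeb1 MSKO library at 9 weeks. Near-identical copies of Ccl21a exist in the mouse genome, so its counts are uncertain. Rrad was called in 9 of 9 alternatives, Ubd in 7 of 9 and Ccl21a in 6 of 9.

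The share of non-cycling basal barcodes under 1 common contractile boundary moved in opposite directions at the 2 ages. Zeb1 MSKO minus control was 30.1 points at 8 weeks and -3.05 points at 9 weeks. The difference between the ages was not tested, since each rests on 1 library per genotype. The Zeb1 MSKO library at 8 weeks also had the lowest depth, and with each barcode thinned to 2000 UMIs the differences were 30.6 and -4.73 points. It also had the most Krt14 in luminal barcodes, whose part in the share was not tested.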

How the results depend on the processing

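Low against high cells gave 125 genes past 1.5-fold in every library, 62 when the cells were split at the median, 19 against the middle cells, 60 above 50 CPM, and 139 to 175 with 1 library left out. Of 616 values of named genes, 523 stayed within 1 SD over the libraries and 1 changed sign (Igfbp3, -0.11 against the middle cells). Between genotypes, the 0 calls became 39 with no filter on low counts, 2 with DESeq2, 28 with age as the replicate block and 0 to 24 with 1 library left out. All 18 named-gene calls gained came from those settings, and Ccl21a ranged from -11.05 to 1.82 with 1 library left out, above 0 without the 8-week control library. The age block is the pairing of the replicate numbers, and it is confounded with preparation. Between ages, the 497 calls became 1575 with no filter, 781 with genotype as a term and 144 to 1302 with 1 library left out, and 265 of 273 named values kept direction and call. For the genotype difference of the ratio, the 3 calls became 52 with no filter, 1 with DESeq2, 1 without doublets and barcodes with skin or fibroblast transcripts, where Ccl21a turned to 0.71, and 4 to 172 with 1 library left out. The share under a common boundary differed by -9.16 to 36.2 points with 1 library left out. The cause of these changes was not tested. With 1 library per genotype and age, and 585 to 1560 low cells in each, genes under a few CPM rest on few barcodes.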
